A study of Mus musculus with 32 samples.

Results

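The genes described here are 40 named genes of ribosome biogenesis and RNA polymerase I, among 24302 genes whose reads were counted in mouse CD4+ T cells. They were taken by symbol from a fixed list, not by their measured values, and all 40 were found and passed the filter on low counts. By role they fall into 7 genes of RNA polymerase I and its initiation, 8 of the small nucleolar ribonucleoproteins (snoRNPs), 9 of the small ribosomal subunit's assembly, 11 of the large subunit's assembly and 5 other abundant nucleolar proteins. The 32 libraries form 8 groups of 4. The cells were taken from the spleen and from axillary and inguinal lymph nodes of mice of strain C57BL/6J and carry the label Nur77KO, for a knockout of Nr4a1 (called KO-labelled here), or WT, for wild type. Within each genotype, cells were stimulated through CD3 and CD28 with XCT790 at 10 µg/ml, with CompA at 10 µg/ml or alone, or were left unstimulated. A time of 12 h is given for stimulation. The protocol describes stimulation without excepting the unstimulated samples, and the groups follow each sample's own labels. Whether unstimulated cells spent the same time in culture is not clear, so stimulation cannot be told apart from time in culture. XCT790 acts as an inverse agonist on ERRα, a nuclear receptor; CompA is known here by its code name only. The labels do not say how or in which cells the Nr4a1 allele acts, what vehicle the cells without inhibitor received, or whether replicate libraries stem from different animals. All p-values therefore measure only how far these samples differ among themselves, and that spread may be technical.

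Ribosomes are built in the nucleolus. RNA polymerase I transcribes the ribosomal DNA into 1 long precursor RNA, snoRNPs guide its methylation and pseudouridylation, and separate sets of assembly factors cut and fold it into the small and the large subunit while ribosomal proteins join. Resting T cells are small and make few ribosomes; after antigen receptor and CD28 signals they grow before they divide, and the transcription factor Myc, which binds the E-box sequence CACGTG, is a known activator of many of these genes. The measurements below are of polyadenylated transcripts, and show neither ribosomal RNA nor ribosomes.

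Promoter windows of 250 bases before to 50 bases after the transcript start were on hand for 35 of the 40 genes (RefSeq, build GRCm38.p6, the same assembly as the mm10 build of the counts). The letters CACGTG, which read the same on both strands, were found in 7 of these 35 windows: Rrn3, Nop2, Utp20, Pes1, Mybbp1a, Tsr1 and Wdr43. They were in 2187 of all 27025 genes with a window (8.09%) and in 1113 of 9393 tested genes with a window (11.8%). The sequences below show the E-box context of the member with the largest WT stimulation response in each role that holds one; no snoRNP gene did. They are written 5′ to 3′ on the gene's strand with the E-box in capitals. For Rrn3, the growth-regulated initiation factor of RNA polymerase I, the 250 bases before the start are chr16:13780449-13780698, plus strand, with E-boxes 215 and 48 bases upstream. For Nop2, a large-subunit RNA methyltransferase, they are chr6:125131633-125131882, plus strand, with an E-box 60 bases upstream. For Utp20 (chr10:88826765-88826789, minus strand) and Mybbp1a (chr11:72441355-72441376, plus strand) the E-box lies within the transcript, at base 38 and base 41.
Rrn3: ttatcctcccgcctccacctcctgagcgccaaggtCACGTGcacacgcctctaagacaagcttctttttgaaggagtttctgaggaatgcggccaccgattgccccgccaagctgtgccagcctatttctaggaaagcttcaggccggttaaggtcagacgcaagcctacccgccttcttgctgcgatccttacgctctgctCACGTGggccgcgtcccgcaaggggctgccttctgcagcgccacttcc
Nop2: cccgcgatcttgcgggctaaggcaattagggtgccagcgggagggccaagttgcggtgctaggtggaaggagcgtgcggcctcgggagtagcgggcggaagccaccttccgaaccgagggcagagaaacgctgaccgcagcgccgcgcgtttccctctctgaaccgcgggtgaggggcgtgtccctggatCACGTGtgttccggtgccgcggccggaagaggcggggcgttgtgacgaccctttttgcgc
Utp20: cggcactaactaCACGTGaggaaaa
Mybbp1a: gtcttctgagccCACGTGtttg
A match describes these letters only. Npm1, Rrp12, Rrs1, Fbl and Bop1 had no window in the table.

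Gene counts per library ranged from 16.0 to 23.7 megacounts, and 13060 to 15148 genes had at least 1 count. Levels are given as CPM, counts relative to the sequenced total of a library after TMM scaling, on the usual CPM scale. The summed level of 10 T cell markers was 4434 to 6375 CPM across the libraries, and Cd4 averaged 428 to 904 CPM over the groups, beside 4.07 to 13.4 CPM for Cd8a. Single T cell markers moved both ways at stimulation. In KO-labelled cells 3 were higher and 4 lower, where 39.3% of all genes were higher and 42.4% lower. In WT 3 were higher and 7 lower, where 34.5% of all genes were higher and 38.8% lower. The sum therefore does not show a constant share of T cells. Nr4a1, the gene named as knocked out, was measured above its WT mean in all KO-labelled groups: it averaged 332 ± 128 CPM in KO-labelled and 166 ± 32.7 CPM in WT stimulated cells (SD, n = 4 each), and 94.2 ± 10.9 CPM in KO-labelled and 71.6 ± 21.4 CPM in WT unstimulated cells. Where the allele lies relative to the counted exons is not given, so the direction of every genotype comparison rests on the labels. The order of the libraries and the genotype cannot be told apart, since KO-labelled libraries carry the numbers 25 to 40 and WT libraries 1 to 16. The WT stimulated libraries stand apart from the other stimulated ones. Over 73 genes of unstimulated cells that are nearly absent after stimulation elsewhere, they held 0.203, 0.348, 0.288 and 0.195 of the level of the unstimulated library of the same run, against at most 0.0104 in any KO-labelled stimulated library and at most 0.00795 in any inhibitor-treated one. These genes were chosen for averaging at most 0.02 of the unstimulated level in those other groups, which fixes the low values there. Over 75 genes chosen, after the data were seen, on the unstimulated and inhibitor-treated groups alone, 73 of them among those used before, the ratio was 0.00354 to 0.0106 in KO-labelled and 0.195 to 0.349 in WT stimulated libraries. A sum was taken over 19 of 20 listed myeloid and dendritic markers. It was 31.07 to 47 CPM in KO-labelled and 661.7 to 2175 CPM in WT stimulated libraries. Inhibitor-treated libraries held 15.05 to 53.82 CPM, and unstimulated ones 1222 to 3057 CPM in KO-labelled and 3255 to 5528 CPM in WT cells. Cd163 was at 0 in KO-labelled cells with XCT790. The group averages of Vcam1, Csf1r, C1qa and other markers meet the rule that chose the 73 genes. The sum is therefore in part the same genes, and its low values were fixed to that extent. In bulk RNA, fewer cells of a type and less RNA per cell cannot be told apart. For each comparison that uses the WT stimulated libraries, the count of genes called and the median are therefore given as measured and after a subtraction. There, that share of the unstimulated library was subtracted from the WT stimulated libraries. Role medians, gene lists and most single-gene values are given as measured only. The subtraction takes the same share of every transcript of the unstimulated library, those of T cells included. It would take too much of the T cell transcripts if only other cell types or their RNA remained, and this was not tested. For genes lower in unstimulated than in WT stimulated libraries, as the genes described here were, the subtraction raises the relative WT stimulated level. The direction in which their values moved was therefore fixed in advance, and only the size of the move was measured.

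**Figure D1:**
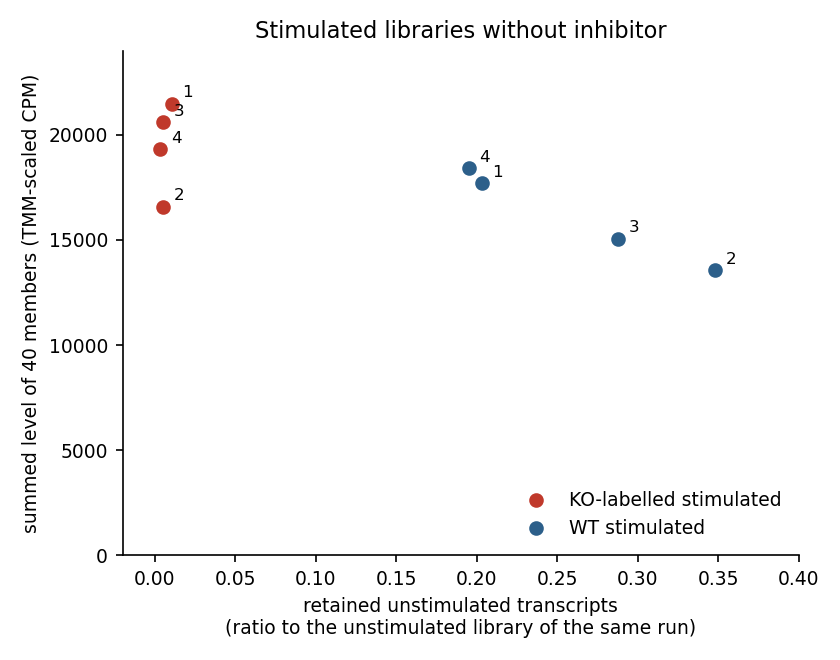
Summed TMM-scaled CPM of the 40 genes (vertical axis) against the retained level of unstimulated-cell transcripts, as a ratio to the unstimulated library of the same run (horizontal axis), in the 8 stimulated libraries without inhibitor, with replicate numbers beside the points. The 4 WT libraries retained 0.195 to 0.348 and the 4 KO-labelled ones at most 0.0104, and replicate 2 has the lowest sum in each genotype, 16590 CPM in KO-labelled and 13570 CPM in WT cells.

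Stimulation raised nearly the whole list. In KO-labelled cells 39 of 40 genes rose (edgeR quasi-likelihood F test, Benjamini-Hochberg adjusted p under 0.05), where 39.3% of all 12332 tested genes were higher. In WT cells 40 of 40 rose, where 34.5% of all genes were higher. The median log2 fold change was 2.20 in KO-labelled and 1.99 in WT cells, beside medians over all tested genes of -0.07 and -0.11. The summed level of the 40 genes was 21480, 16590, 20590 and 19310 CPM in KO-labelled stimulated libraries, against 4468, 3896, 4067 and 3979 CPM in KO-labelled unstimulated ones. In WT it was 17710, 13570, 15060 and 18430 CPM after stimulation, against 4749, 4515, 4476 and 4451 CPM without. Stimulated and unstimulated libraries did not overlap in either genotype, and replicate 2 was the lowest stimulated library in both. Myeloid and dendritic markers moved with stimulation: 19 of 19 were lower in both genotypes, by a median log2 of -6.08 in KO-labelled and -1.79 in WT cells, where 42.4% and 38.8% of all genes were lower. Their part in the result was not tested. After subtraction of the retained share, the WT count was again 40 (37.3% of all genes were higher) and the median was 2.35. The subtraction can only raise genes that were higher after stimulation, so this repeat adds no support. The genotypes, which share no control libraries, ordered the genes alike (Pearson r = 0.86 and Spearman rho = 0.86 over 40 genes, given as a description).

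**Figure D2:**
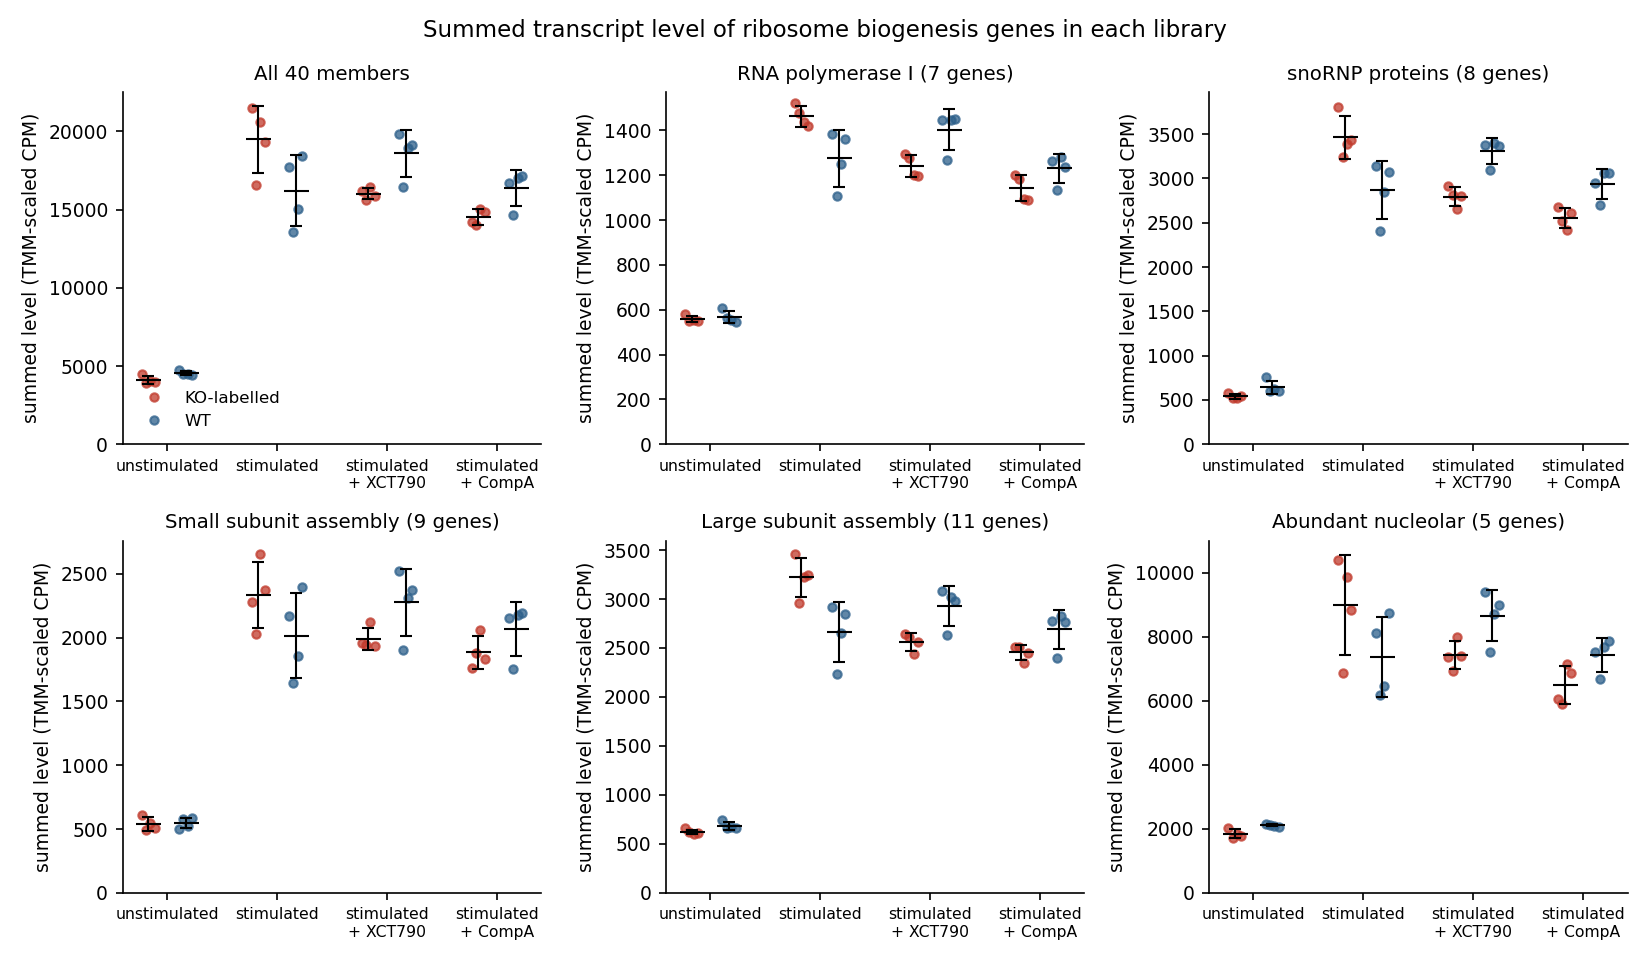
Summed TMM-scaled CPM of the genes of each role in every library, with KO-labelled left of WT libraries and bars showing mean and SD of 4 libraries. In every panel the stimulated and inhibitor-treated libraries lie above all unstimulated ones, and over all 40 genes every KO-labelled inhibitor-treated sum lies below the lowest KO-labelled stimulated sum, 16590 CPM.

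Among the RNA polymerase I genes the response was uneven. Polr1b, a catalytic subunit (chromosome 2, 129100970 to 129128060), stood at 208, 248, 263 and 270 CPM in KO-labelled stimulated libraries, against 34.1, 34.2, 29.9 and 31.2 CPM in KO-labelled unstimulated ones. In WT it stood at 243, 183, 224 and 251 CPM after stimulation, against 40.3, 33.5, 41.4 and 35.9 CPM without. The groups did not overlap, and Polr1b rose 7.64-fold in KO-labelled and 5.97-fold in WT cells (log2 2.93 and 2.58), the largest change of the 7. The other catalytic subunit, Polr1a, rose by a log2 of only 1.20 in KO-labelled and 1.13 in WT cells. Polr1c and Polr1d, subunits that RNA polymerase III also uses, rose by 1.89 and 1.75 in KO-labelled and by 0.95 and 1.01 in WT cells on the log2 scale. Polr1e, a subunit particular to RNA polymerase I, rose by 2.06 in KO-labelled and 1.52 in WT cells, and Rrn3 by 1.69 and 1.36, again as log2 fold changes. Ubtf, which shapes ribosomal DNA chromatin at the promoter (chromosome 11, 102304560 to 102323649), was the exception. It stood at 323, 197, 325 and 267 CPM in KO-labelled stimulated libraries, against 246, 233, 237 and 220 CPM in KO-labelled unstimulated ones, and these overlap through replicate 2. In WT its level was 237, 232, 232 and 302 CPM after stimulation, against 137, 207, 147 and 176 CPM without, which do not overlap. Its log2 fold change was 0.25 in KO-labelled (SE 0.139, edgeR adjusted p = 0.098) and 0.59 in WT cells (SE 0.14, edgeR adjusted p = 5e-04). Scaling by upper quartiles or library totals puts the KO-labelled value at -0.0076 or -0.081.

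The 8 snoRNP genes all rose in both genotypes, with medians of 2.57 in KO-labelled and 2.14 in WT cells on the log2 scale. Nhp2, an RNA-binding protein of the H/ACA particles that make pseudouridine (chromosome 11, 51619773 to 51623718), stood at 787, 664, 487 and 581 CPM in KO-labelled stimulated libraries, against 49.3, 54.9, 47.2 and 52.2 CPM in KO-labelled unstimulated ones. In WT it stood at 574, 426, 555 and 452 CPM after stimulation, against 122, 57.1, 79.6 and 64.2 CPM without. The groups lie far apart; the rise was 12.4-fold in KO-labelled cells (log2 3.63, SE 0.188, edgeR adjusted p = 2.5e-16) and 6.23-fold in WT cells (log2 2.64, SE 0.18, edgeR adjusted p = 2.4e-13). Nop58, a core protein of the box C/D particles that guide methylation (chromosome 1, 59684961 to 59711510), had 795, 664, 817 and 799 CPM in KO-labelled stimulated libraries, against 115, 87.6, 103 and 103 CPM in KO-labelled unstimulated ones. In WT its levels were 699, 523, 608 and 736 CPM after stimulation, against 118, 112, 108 and 102 CPM without. Its log2 rise was 2.91 in KO-labelled and 2.55 in WT cells, with no overlap. Nop10, the smallest H/ACA protein, had the smallest rise of the role: 340, 343, 225 and 263 CPM in KO-labelled stimulated libraries, against 69.7, 74.1, 66.6 and 74.1 CPM in KO-labelled unstimulated ones. In WT the values were 262, 209, 241 and 208 CPM after stimulation, against 139, 80.8, 107 and 91.3 CPM without. That is a log2 change of 2.04 in KO-labelled and 1.14 in WT cells, the highest unstimulated WT library being replicate 1. Fbl, the methyltransferase of the box C/D particle, rose by 2.51 and 1.86, Nop56 by 2.64 and 2.12, Gar1 by 3.06 and 2.53, the pseudouridine synthase Dkc1 by 2.28 and 2.16 and the snoRNP chaperone Nolc1 by 2.17 and 2.08, as log2 fold changes in KO-labelled and WT cells.

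All 9 small-subunit genes rose in both genotypes, with medians of 2.14 in KO-labelled and 2.13 in WT cells on the log2 scale. Rrp9, a protein of the U3 snoRNP that starts cleavage of the precursor (chromosome 9, 106477309 to 106485415), stood at 384, 322, 262 and 303 CPM in KO-labelled stimulated libraries, against 40.2, 38.1, 34.7 and 35.0 CPM in KO-labelled unstimulated ones. In WT it had 290, 201, 283 and 257 CPM after stimulation, against 64.5, 48.9, 53.3 and 47.7 CPM without. With no overlap, it rose 8.59-fold in KO-labelled cells (log2 3.10, SE 0.137, edgeR adjusted p = 7.2e-18) and by a log2 of 2.27 in WT cells. Bms1, a GTPase of the small-subunit processome, had the smallest rise of this role. Its levels were 187, 126, 235 and 179 CPM in KO-labelled stimulated libraries, against 114, 87.0, 103 and 99.4 CPM in KO-labelled unstimulated ones. In WT they were 163, 141, 130 and 208 CPM after stimulation, against 57.3, 97.1, 73.1 and 90.2 CPM without. These too do not overlap, and the log2 change was 0.85 in KO-labelled and 1.01 in WT cells. Heatr1, a large scaffold that also acts in ribosomal DNA transcription, had 314, 360, 515 and 455 CPM in KO-labelled stimulated libraries, against 95.1, 84.0, 83.1 and 81.5 CPM in KO-labelled unstimulated ones. In WT it had 399, 313, 342 and 466 CPM after stimulation, against 68.6, 89.7, 80.8 and 98.5 CPM without, so the groups lie apart. Heatr1 rose by a log2 of 2.26 in KO-labelled and 2.17 in WT cells. The other 6 genes, Nop14, Rrp12, Tsr1, Utp20, Wdr43 and Wdr75, rose by 1.59 to 2.61 in KO-labelled and by 1.53 to 2.15 in WT cells on that scale.

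The 11 large-subunit genes rose by a median log2 of 2.17 in KO-labelled and 1.91 in WT cells. Nop16, a nucleolar assembly factor (chromosome 13, 54584191 to 54590097), stood at 324, 328, 237 and 270 CPM in KO-labelled stimulated libraries, against 26.8, 27.4, 25.3 and 28.1 CPM in KO-labelled unstimulated ones. In WT it had 270, 195, 247 and 223 CPM after stimulation, against 50.9, 30.0, 37.6 and 31.1 CPM without. It rose 10.8-fold in KO-labelled cells (log2 3.43, SE 0.149, edgeR adjusted p = 5.1e-18) and 6.27-fold in WT cells (log2 2.65, SE 0.144, edgeR adjusted p = 1.6e-15), with groups far apart. Pes1, which forms a complex with Bop1 and Wdr12 that the large subunit needs, had 368, 357, 345 and 353 CPM in KO-labelled stimulated libraries, against 95.7, 93.0, 85.5 and 90.7 CPM in KO-labelled unstimulated ones. In WT it had 344, 271, 313 and 323 CPM after stimulation, against 121, 93.8, 106 and 97.2 CPM without. The members of this complex rose unequally and without overlap for Pes1: Pes1 3.90-fold and 2.99-fold, Bop1 4.28-fold and 3.19-fold and Wdr12 8.46-fold and 5.35-fold in KO-labelled and WT cells. Noc2l, part of a pre-ribosome complex with Noc3l in yeast, had 635, 523, 640 and 645 CPM in KO-labelled stimulated libraries, against 147, 141, 134 and 132 CPM in KO-labelled unstimulated ones. In WT its levels were 525, 415, 513 and 524 CPM after stimulation, against 137, 138, 135 and 138 CPM without. Replicate 2 was again the lowest stimulated library, and the log2 rise was 2.14 in KO-labelled and 1.85 in WT cells. The remaining genes, Noc3l, Rrp1b, Ftsj3, Rrs1, Nop2 and Nip7, rose by 1.89 to 2.93 in KO-labelled and by 1.80 to 2.35 in WT cells on the same scale.

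The 5 nucleolar proteins, which are among the most abundant of the nucleolus, rose by a median log2 of 2.27 in KO-labelled and 2.11 in WT cells. Npm1, nucleophosmin (chromosome 11, 33152498 to 33164142), stood at 4420, 3700, 3850 and 4050 CPM in KO-labelled stimulated libraries, against 763, 655, 692 and 739 CPM in KO-labelled unstimulated ones. In WT it had 3860, 3000, 3160 and 3460 CPM after stimulation, against 1470, 961, 1210 and 1020 CPM without. Its groups do not overlap, and its log2 rise was 2.49 in KO-labelled and 1.54 in WT cells, where the unstimulated level differed by genotype. Gnl3, nucleostemin, a GTP-binding protein of proliferating cells, had 210, 148, 200 and 186 CPM in KO-labelled stimulated libraries, against 31.0, 21.4, 23.2 and 22.9 CPM in KO-labelled unstimulated ones. In WT it had 161, 117, 124 and 178 CPM after stimulation, against 23.5, 25.7, 24.5 and 26.9 CPM without. Its log2 rise was 2.92 in KO-labelled and 2.53 in WT cells, again without overlap. Ncl (nucleolin), the RNA helicase Ddx21 and Mybbp1a rose by 2.27, 1.66 and 2.23 in KO-labelled and by 2.18, 1.72 and 2.11 in WT cells on the log2 scale.

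**Figure D3:**
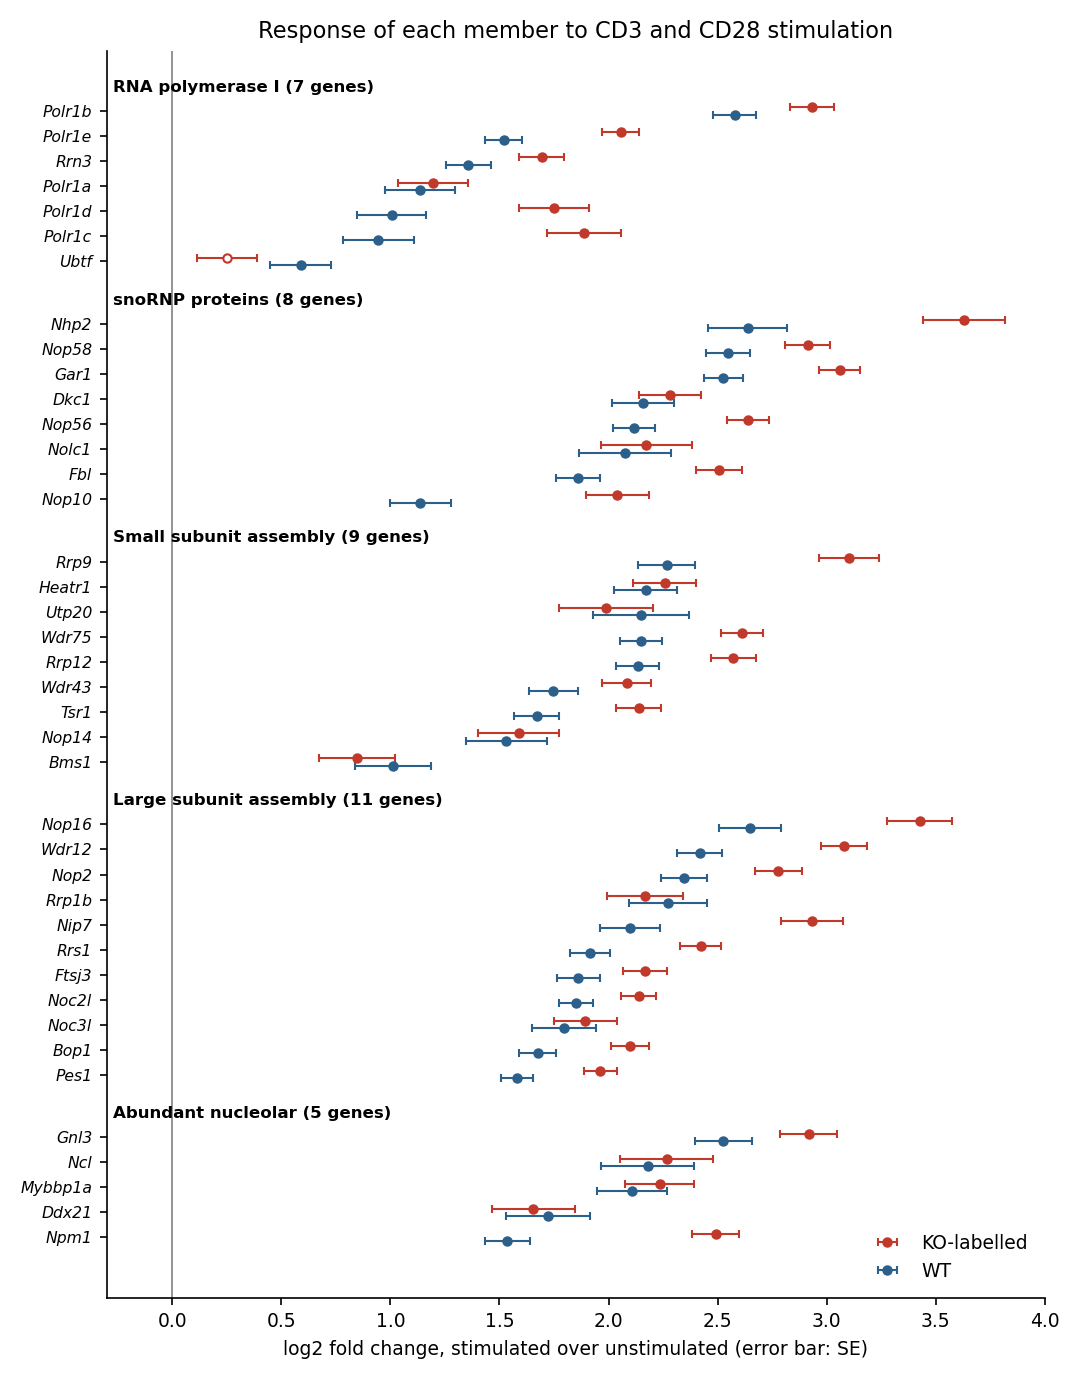
Log2 fold change by stimulation of each of the 40 genes, KO-labelled above WT, ordered within roles, with SE bars from the edgeR fit. Values run from 0.25 (Ubtf, KO-labelled, open symbol, not called) to 3.63 (Nhp2, KO-labelled).

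Most other genes of the pathway, from lists written with earlier results of these data known, moved in the same direction at stimulation. Over all genes, 39.3% rose and 42.4% fell in KO-labelled cells, and 34.5% rose and 38.8% fell in WT. Of 29 further small-subunit processome genes, 29 rose in KO-labelled and 29 in WT cells, among them Noc4l (6.98-fold in KO-labelled, 5.73-fold in WT), Utp15 and the RNA acetyltransferase Nat10. Of 40 further large-subunit genes, 36 rose in KO-labelled cells; in WT 39 rose, among them Rrp15 (7.49-fold in KO-labelled, 5.04-fold in WT), Ebna1bp2 and Ppan, and Nsa2, named after its values were seen, fell (log2 -0.43; 0.12 and not called in KO-labelled cells). All 12 genes of the RNA exosome, which trims ribosomal precursors, rose in both genotypes, among them its catalytic subunit Dis3 (6.60-fold in KO-labelled, 6.09-fold in WT), Exosc1 and Exosc2. Of 13 other RNA polymerase I genes, 11 rose in KO-labelled and 10 in WT cells, among them Twistnb (2.86-fold in KO-labelled, 2.04-fold in WT) and the shared subunits Polr2f and Polr2e. Ttf1, the factor that ends ribosomal DNA transcription, named after its values were seen, fell in KO-labelled cells (log2 -1.11) and stood at -0.50 in WT, not called. RNA polymerase III, which makes the 5S ribosomal RNA and transfer RNAs, was mixed: 10 of 14 genes rose and 3 fell in each genotype, with Polr3g rising 7.06-fold in KO-labelled and 6.37-fold in WT cells.

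Myc itself rose 7.42-fold in KO-labelled cells (log2 2.89, edgeR adjusted p = 6.4e-17) and 5.86-fold in WT cells (log2 2.55, edgeR adjusted p = 1.9e-15). Of the 10 genes of its network, 3 rose and 7 fell in KO-labelled cells, and 2 rose and 6 fell in WT; over all genes, 39.3% rose and 42.4% fell in KO-labelled cells, and 34.5% rose and 38.8% fell in WT. The falling ones include Mxd4 (log2 -3.95 in KO-labelled, -1.60 in WT) and Mxi1 (-1.16 in KO-labelled, -0.96 in WT), which compete with Myc for the partner Max. Of 9 tested p53 targets, a pathway that nucleolar stress is known to engage, 5 rose and 2 fell in KO-labelled cells, and 3 rose and 2 fell in WT, where 3 of 9 is near the share over all genes. Cdkn1a rose by a log2 of 5.19 in KO-labelled and 4.19 in WT cells, Phlda3 by 4.64 and 2.93, while Pmaip1 fell by 0.81 and 0.86.

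With either inhibitor, the genes stayed far above the unstimulated level. Against unstimulated cells, 39 of 40 were higher with XCT790 in KO-labelled cells (39.6% of all genes were), 40 with XCT790 in WT (37.7%), 39 with CompA in KO-labelled cells (39.2%) and 39 with CompA in WT (37.2%). The median log2 fold changes were 1.96, 2.18, 1.82 and 1.95 in that order. In each comparison with 39, the gene not called was Ubtf, with log2 fold changes of 0.11 (XCT790, KO-labelled), -0.18 (CompA, KO-labelled) and 0.23 (CompA, WT).

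Against stimulation alone, both inhibitors lowered the genes modestly in KO-labelled cells. XCT790 lowered 13 of 40, where 5.07% of all genes were lower, and CompA lowered 27 of 40, where 9.11% were. All 40 log2 fold changes were negative with each, with medians of -0.26 for XCT790 and -0.38 for CompA, beside 0.02 and 0.03 over all genes. The 2 comparisons share the KO-labelled stimulated libraries. The summed level was 16190, 15580, 16420 and 15890 CPM with XCT790 and 14200, 14010, 15060 and 14840 CPM with CompA, against 21480, 16590, 20590 and 19310 CPM with stimulation alone. No inhibitor-treated sum reached the lowest stimulated one, replicate 2. Within runs of consecutive library numbers, the sum with XCT790 was 0.754, 0.939, 0.798 and 0.823 of the stimulated sum, and with CompA 0.661, 0.845, 0.732 and 0.769.

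By role, XCT790 lowered 2 RNA polymerase I, 2 snoRNP, 3 small-subunit and 6 large-subunit genes in KO-labelled cells, and none of the 5 nucleolar ones passed. The largest falls were in Wdr12 (log2 -0.49, SE 0.0974, edgeR adjusted p = 0.0019), Nip7 (-0.48, SE 0.132, edgeR adjusted p = 0.02) and Rrp9 (-0.44, SE 0.126, edgeR adjusted p = 0.024). Wdr12 stood at 172, 164, 138 and 172 CPM with XCT790 and at 254, 214, 208 and 230 CPM with stimulation alone, which do not overlap. CompA lowered 5, 6, 4, 9 and 3 genes of the 5 roles, in the order RNA polymerase I, snoRNP, small subunit, large subunit, nucleolar. Its largest falls were in Nolc1 (log2 -0.70, SE 0.201, edgeR adjusted p = 0.014), Nip7 (-0.67, SE 0.133, edgeR adjusted p = 7.7e-04) and Ncl (-0.66, SE 0.205, edgeR adjusted p = 0.023). Nip7, an assembly factor needed for correct pre-rRNA processing, stood at 197, 171, 136 and 158 CPM with CompA and at 331, 274, 215 and 235 CPM with stimulation alone, without overlap. Nolc1 stood at 168, 178, 254 and 177 CPM with CompA and at 399, 190, 390 and 281 CPM with stimulation alone, and there replicate 2 of the stimulated libraries falls among the treated ones. Ubtf, little moved by stimulation in KO-labelled cells, was among the genes that fell with CompA (log2 -0.43): 189, 185, 245 and 204 CPM, against 323, 197, 325 and 267 CPM. These overlap through replicate 2 of the stimulated libraries.

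The fall was in the same direction within runs for most genes. With XCT790, 26 of 40 genes were lower in all 4 KO-labelled runs, where 20.2% of all genes were, and with CompA 31 of 40, where 22.4% were. A fit with the run as a replicate block called 22 genes lower with XCT790 in KO-labelled cells, where it called 10.4% of all genes lower. A fit of only the compared groups called 2 with XCT790 and 14 with CompA. Without 1 library at a time the XCT790 count was 6 to 15; it was 7 without XCT790 replicate 3, 6 without XCT790 replicate 4 and 8 without stimulated replicate 4, all KO-labelled. In the wider lists, XCT790 lowered 9 of 29 further small-subunit, 15 of 40 further large-subunit and 5 of 12 exosome genes in KO-labelled cells. CompA lowered 15, 22 and 5 of them. Of 13 other RNA polymerase I genes, XCT790 lowered 1 and CompA 3. Of 14 RNA polymerase III genes, XCT790 lowered 0 and raised 2, and CompA lowered 3 and raised 1. Over all 12332 genes, XCT790 lowered 5.07% and raised 765, and CompA lowered 9.11% and raised 1255.

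In WT cells the same comparisons gave other values, and these changed when the retained unstimulated-cell transcripts were subtracted from the WT stimulated libraries. The downward direction of that change was fixed by the subtraction, because these genes were lower in unstimulated cells. As measured, XCT790 raised 7 of 40 genes, where 8.4% of all genes were higher, and all 40 log2 fold changes were positive with a median of 0.16. The 7 were Nop10, Gnl3, Fbl, Pes1, Polr1e, Polr1b and Npm1; the largest were Nop10 (0.43, SE 0.139, edgeR adjusted p = 0.02), Gnl3 (0.36, SE 0.122, edgeR adjusted p = 0.025) and Fbl (0.30, SE 0.0988, edgeR adjusted p = 0.023). Without WT stimulated replicate 2, the library with the largest retained share, 0 passed; without WT stimulated replicate 3 it was 3, and 4 without XCT790 replicate 1 or 3. With the retained share subtracted, 0 were higher and 6 were lower (Nop56, Nop58, Wdr12, Nop2, Rrs1 and Noc2l; 3.16% of all genes were lower), 39 of 40 values were negative, and the median was -0.20. Nop58 stood at 751, 613, 734 and 694 CPM with XCT790 and at 699, 523, 608 and 736 CPM with stimulation alone before subtraction, which overlap. The summed level was 19830, 16430, 18900 and 19150 CPM with XCT790, against 17710, 13570, 15060 and 18430 CPM. The ratio of the sums was above 1 in every run, at 1.12, 1.21, 1.26 and 1.04.

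CompA in WT cells raised 2 genes as measured, Nop10 (log2 0.45, SE 0.139, edgeR adjusted p = 0.013) and Pes1 (0.21, SE 0.073, edgeR adjusted p = 0.03), where 11.6% of all genes were higher. It lowered 1, Ubtf (-0.36, SE 0.14, edgeR adjusted p = 0.048), where 21.3% were lower, and 18 of 40 values were positive. Ubtf was not called with DESeq2, limma-voom or no filter on low counts, nor in 5 of 8 fits that left out 1 library. Pes1 was not called when scaled by library totals or in a fit of the compared groups only, nor in 4 of 8 such fits. With the share subtracted, 28 were lower, where 11.3% of all genes were, and 39 of 40 values were negative, with a median of -0.39, beside -0.38 in KO-labelled cells. Ubtf stood at 187, 177, 204 and 214 CPM with CompA and at 237, 232, 232 and 302 CPM with stimulation alone, which do not overlap. The summed level was 16670, 14650, 17030 and 17120 CPM with CompA, and 0.941, 1.08, 1.13 and 0.929 of the stimulated sum of the same run. The log2 fold change moved with transcript length over the 40 genes (longest protein-coding transcript in GENCODE M21; Pearson r -0.47, Spearman rho -0.46; -0.04 and -0.14 over 11405 genes), and the part of length was not tested.

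**Figure D4:**
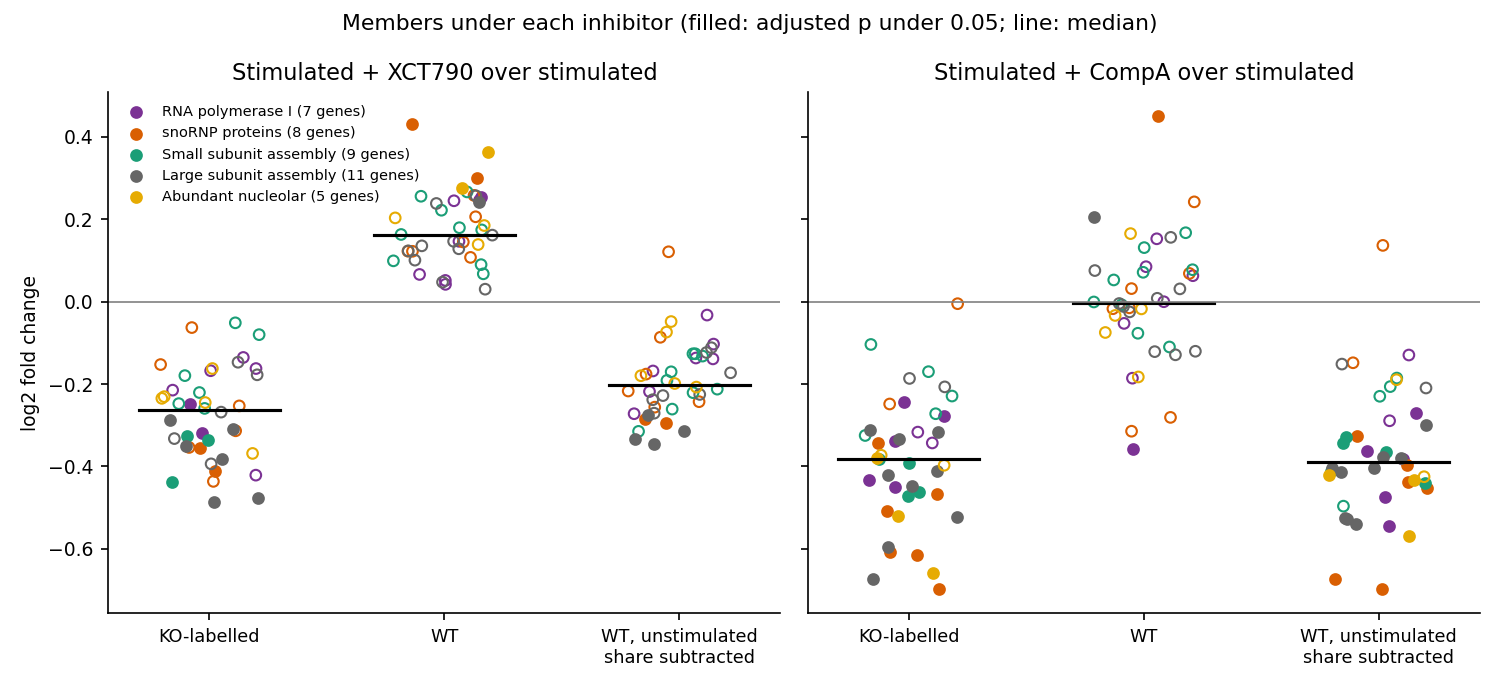
Log2 fold change of each of the 40 genes with XCT790 and with CompA against stimulation alone, in KO-labelled cells, in WT cells as measured and in WT cells with the retained unstimulated share subtracted. Filled symbols passed an adjusted p under 0.05; medians with XCT790 are -0.26, 0.16 and -0.20, and with CompA -0.38, -0.003 and -0.39.

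The test of the difference between genotypes followed the same lines. As measured, the XCT790 effect was lower in KO-labelled than in WT cells for 23 of 40 genes, where 7.23% of all genes were, with a median log2 difference of -0.45. The CompA effect was lower for 15 of 40, where 5.99% were, with a median of -0.39. Without WT stimulated replicate 2 the counts were 13 and 7, and a fit of the compared groups only gave 12 and 7. Scaling by library totals gave 14 and 6, while DESeq2 gave 26 and 24 and the replicate block 29 and 26. The CompA difference moved with transcript length over the 40 genes (Pearson r 0.53, Spearman rho 0.55; 0.09 and 0.26 over 11405 genes), and so, less closely, did the XCT790 difference (0.32 and 0.36; 0.07 and 0.22 over 11405 genes); the part of length was not tested. With the retained share subtracted the counts were 0 and 0, with 0 genes at an unadjusted p under 0.05 in each, and medians of -0.07 and -0.01, where 0.00812% and 0.0162% of all genes were called lower; only edgeR was run on the subtracted counts. The XCT790 effect and the CompA effect share the stimulated libraries within a genotype.

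Few of the genes differed between XCT790 and CompA past the threshold, which does not show that the compounds act alike. In KO-labelled cells 0 of 40 differed by edgeR, 5 at an unadjusted p under 0.05, and 0 by DESeq2 and by limma-voom, where 1.97% of all genes were higher with XCT790. The log2 differences ran from -0.08 to 0.36, with a median of 0.10, and 36 of 40 were positive. With the run as a replicate block, Gar1 (0.21) and Gnl3 (0.35) were called higher with XCT790, where 4.31% of all genes were. In WT cells Dkc1 (log2 0.43, SE 0.134, edgeR adjusted p = 0.043) and Gnl3 (0.38, SE 0.122, edgeR adjusted p = 0.046) were higher with XCT790 than with CompA, where 4.33% of all genes were, and the median was 0.14. Gnl3 stood at 205, 164, 187 and 190 CPM with XCT790 and at 146, 127, 144 and 155 CPM with CompA in WT, which do not overlap. In KO-labelled cells Gnl3 had 167, 155, 184 and 158 CPM with XCT790 and 126, 120, 138 and 135 CPM with CompA, which do not overlap either. The replicate block called 6 genes in WT (Ubtf, Dkc1, Tsr1, Wdr12, Nip7 and Gnl3; 7.53% of all genes) and a fit of the compared groups only called 12. Neither Dkc1 nor Gnl3 was called with library totals, upper-quartile factors or no filter on low counts, and each lost its call in 7 of 8 fits that left out 1 library, the exception being the fit without XCT790 replicate 2. The difference between the inhibitors passed the test for a difference by genotype in 0 of 40 genes by edgeR, 0 at an unadjusted p under 0.05 and 0 by DESeq2. That genotype difference moved with transcript length over the 40 genes (Pearson r -0.50, Spearman rho -0.46, beside -0.05 and -0.13 over 11405 genes). So did the WT difference between the inhibitors (0.37 and 0.38, beside 0.06 and 0.06). The part of length was not tested.

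As measured, some of the genes differed between KO-labelled and WT cells before stimulation. Of the 40 genes, 14 were lower in KO-labelled unstimulated cells, where 23.6% of all genes were lower, and 2 were higher, where 12.5% were. The lower share of 14 in 40 is above the share over all genes, but the median, -0.15, lies near the median of all genes, -0.08. The largest were Npm1 (log2 -0.71, SE 0.102, edgeR adjusted p = 1.7e-05), Nhp2 (-0.66, SE 0.173, edgeR adjusted p = 0.0049) and Polr1c (-0.64, SE 0.164, edgeR adjusted p = 0.0046). Npm1 had 763, 655, 692 and 739 CPM in KO-labelled and 1470, 961, 1210 and 1020 CPM in WT unstimulated libraries. Polr1c had 52.8, 61.7, 53.7 and 60.7 CPM in KO-labelled and 121, 64.9, 95.1 and 75.5 CPM in WT. Neither overlaps between the genotypes, and WT replicate 1 is the highest library for both. Reads without a unique alignment also differed, at 91.3, 68.9, 82.7 and 72.9 per 100 gene counts in WT unstimulated libraries. In KO-labelled unstimulated ones they stood at 59.6, 71.2, 59.1 and 60.4. In WT their order over the libraries is that of Npm1 and Polr1c, and their part in the result was not tested. The 2 higher genes were Ubtf (0.49, edgeR adjusted p = 0.0092) and Rrp1b (0.44, edgeR adjusted p = 0.045), which was not called with limma-voom, no filter or the replicate block, nor in 5 of 8 fits that left out 1 library. Scaling by library totals gave 4 higher and 7 lower with a median of 0.06, beside 2992 higher and 1183 lower of all 12332 genes. A fit without WT unstimulated replicate 1 gave 4 lower, a share near that over all genes (1060 of 12455). A fit of the compared groups only gave 2 higher and 6 lower, beside 1191 higher and 1103 lower of 11971 genes. Of the 19 myeloid and dendritic markers, 11 were lower in KO-labelled unstimulated cells (median log2 -0.92), with a summed level of 2051 ± 780 CPM in KO-labelled and 4084 ± 1070 CPM in WT cells (SD, n = 4 each). The summed level of 12 B cell markers was 808.7 CPM in KO-labelled replicate 2, 101.8 to 173.1 CPM in the other KO-labelled and 170 to 252.2 CPM in the WT unstimulated libraries. The part of these markers in the result was not tested. Transcript length moved with this result: across the 40 genes the log2 difference correlated with the length of the longest protein-coding transcript in GENCODE M21 (Pearson r 0.65, Spearman rho 0.68), more than over 11405 genes (0.29 and 0.40). The median was -0.35 for the 20 shorter genes and 0.07 for the 20 longer ones. The genes share their libraries, so this describes them only, and its part in the result was not tested.

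After stimulation, 9 of 40 genes were higher in the KO-labelled cells than in WT, where 7.31% of all genes were, and all 40 values were positive with a median of 0.27. The largest were Nip7 (log2 0.38, SE 0.132, edgeR adjusted p = 0.034), Nop2 (0.37, SE 0.0995, edgeR adjusted p = 0.0058) and Gnl3 (0.36, SE 0.122, edgeR adjusted p = 0.03). Nip7 had 331, 274, 215 and 235 CPM in KO-labelled and 240, 175, 208 and 188 CPM in WT stimulated libraries, and these overlap. Only 3 genes had no overlap, beside 4.9% of all genes. The count was 1 without WT stimulated replicate 2, 3 without WT stimulated replicate 3, 5 without KO-labelled stimulated replicate 4, 16 without WT stimulated replicate 1 and 21 without KO-labelled stimulated replicate 2. With the retained share subtracted from the WT stimulated libraries, 0 were higher and 2 were lower (Polr1b and Gar1; 2.37% of all genes were lower), 37 of 40 values were negative, and the median was -0.11. A fit of the compared groups only called 0, and DESeq2 19. Of the 12 B cell markers, KO-labelled replicate 2 had a summed level of 279.3 CPM when stimulated, against 34.82 to 60.95 CPM in the other KO-labelled and 83.53 to 112.60 CPM in the WT stimulated libraries; without the 4 libraries of its run the count was 15.

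The stimulation response was larger in KO-labelled than in WT cells for 23 of 40 genes as measured, where 17.2% of all genes had a larger response, with a median log2 difference of 0.39. A fit of the compared groups only called 12. The largest were Nhp2 (0.99, SE 0.242, edgeR adjusted p = 0.0037), Npm1 (0.96, SE 0.143, edgeR adjusted p = 2.4e-05) and Polr1c (0.94, SE 0.231, edgeR adjusted p = 0.0038). With the retained share subtracted, 2 passed, Nop10 (0.58) and Npm1 (0.60), where 8.22% of all genes did, and the median was 0.01. The count was 12 when scaled by library totals, and 15 without WT unstimulated replicate 1. As measured, the difference also moved with transcript length over the 40 genes (Pearson r -0.68, Spearman rho -0.71; -0.24 and -0.41 over 11405 genes), with medians of 0.53 for the 20 shorter and 0.11 for the 20 longer genes; its part in the result was not tested.

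The genotypes were also compared with an inhibitor present, where no WT stimulated library enters. With XCT790, 4 of 40 genes were lower in KO-labelled cells (Wdr12 -0.35, Polr1e -0.30, Gar1 -0.28 and Pes1 -0.23 on the log2 scale, with edgeR adjusted p = 0.021, 0.019, 0.034 and 0.041), where 2.11% of all genes were lower. All 40 values were negative, with a median of -0.20, and 12 genes had no overlap between the genotypes, beside 8.82% of all genes. Wdr12 had 172, 164, 138 and 172 CPM in KO-labelled and 212, 194, 211 and 206 CPM in WT libraries with XCT790, which do not overlap. With CompA, Fbl (log2 -0.33, edgeR adjusted p = 0.035) and Gar1 (-0.32, edgeR adjusted p = 0.018) were lower in KO-labelled cells, where 1.88% of all genes were, and the median was -0.14; 4 genes had no overlap, beside 6.94% of all genes. DESeq2 called 8 genes lower with XCT790 and 4 with CompA, and a fit of the compared groups only 8 and 2. Leaving out 1 library at a time gave 0 to 5 genes with XCT790 and 0 to 2 with CompA. Without the run of KO-labelled replicate 2, 1 gene was lower with each inhibitor. The log2 difference with CompA moved with transcript length over the 40 genes (Pearson r 0.39, Spearman rho 0.35, beside 0.08 and 0.19 over 11405 genes). With XCT790 the values were 0.13 and 0.14, beside 0.05 and 0.12. The part of length was not tested.

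**Figure D5:**
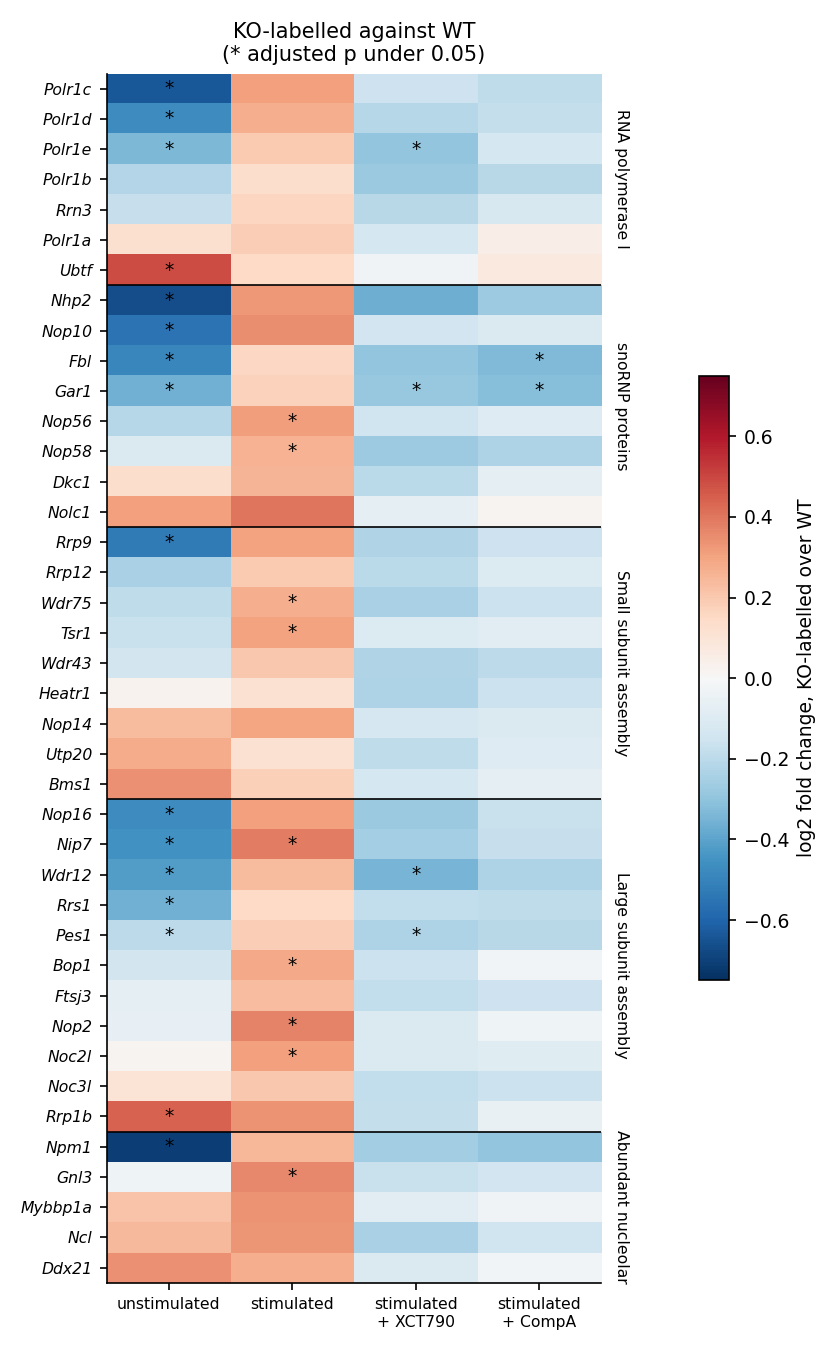
Log2 ratio of KO-labelled over WT cells for each of the 40 genes (rows, by role) in the 4 conditions (columns), with an asterisk where the adjusted p was under 0.05. The medians are -0.15 unstimulated, 0.27 stimulated, -0.20 with XCT790 and -0.14 with CompA.

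Some of the genes hold other genes of the pathway. Introns of snoRNA host genes carry the guide RNAs of the same pathway, and 7 of the 40 genes (17.5%) hold 21 annotated snoRNA genes on their strand, against 190 of 11400 tested protein-coding genes (1.67%). Nop56 holds 5, Nop58 4, Wdr43, Ncl and Gnl3 3 each, Tsr1 2 and Dkc1 1. Of these 21, the count files list 12, which held 387 counts over all 32 libraries together, too few to follow in polyadenylated RNA. The members lie on 18 chromosomes, with at most 7 on 1. Exons of 12 members overlap those of a counted gene on the opposite strand, none on the same strand. The kit keeps strand, but whether counting used it is not given, so the levels of Nop56, Dkc1, Nhp2, Rrp9, Tsr1, Heatr1, Bop1, Wdr12, Rrp1b, Noc2l, Gnl3 and Mybbp1a may include or lack reads of that overlap.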

How the data were processed

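Poly(A)-selected, directional libraries of mouse CD4+ T cells were sequenced, per the labels' protocols. The authors deposited whole-number read counts per gene for each library, not normalized. The submitters' processing notes name Trimmomatic 0.36, HISAT2 2.1.0, SAMtools, HTSeq 0.9.1, R 3.4.4, DESeq2 1.18.1 and the mm10 build; settings, annotation version and strand setting are not given in the sources used here. Reads outside genes (5.31 to 13.3%) and ambiguous reads (1.10 to 2.32%) stayed out of library sizes and tests. These are shares of the gene counts, the reads outside genes and the ambiguous reads together. Reads without a unique alignment (58.6 to 91.3 per 100 gene counts) and other lines that name no gene also stayed out.

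Counts were tested with edgeR 4.0.16 (limma 3.58.1, R 4.3.3; quasi-likelihood F test, TMM, default filter on low counts, leaving 12332 of 24302 genes). A single model over the 32 libraries, with a mean for each group, gave 20 contrasts; p-values were Benjamini-Hochberg adjusted over all tested genes and called under 0.05. Alternatives were DESeq2 1.42.0, limma-voom, other scalings, no filter, fewer libraries, a replicate block and subtraction of the retained unstimulated share, estimated from 73 genes (at least 10 CPM in both unstimulated groups and at most 0.02 of it in the other stimulated groups). On simulated counts of 12027 genes for WT stimulation, 55.2%, 71.6% and 90.9% of 1.5-, 2- and 4-fold changes were recovered, with 6 false calls. The simulation changed only 67, 67 and 66 genes, where the measured contrast called 9037, so its figures may not hold for the reported tests. Depths were 16.0 to 23.7 megacounts per library, and errors here come from the spread between libraries.

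Levels in every library are given for up to 3 genes of each role: those with the largest and the smallest WT stimulation change and the highest mean CPM. In each comparison the 3 largest called rises and falls are named, or all where 5 or fewer were called. The other names were chosen after their values were seen. The genes and lists, the subtraction and the omission of a run were chosen with earlier results of these data known.

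Library numbers fall into 8 runs of 4, each with 1 library per condition, and replicate numbers follow the runs; what the libraries of a run have in common is not given. Deviations from the group means correlated within runs at 0.19 to 0.69 for every pair of conditions in KO-labelled cells. In WT they did so for unstimulated with stimulated cells (0.37 to 0.56) and XCT790 with CompA (0.17 to 0.49), and not in every run for the other pairs (down to -0.22). All replicate pairs differed by more than sampling noise (lowest chi-square per degree of freedom 3.01).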

Additional observations from a re-analysis of the deposited data

Results flagged for a closer look

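In 13 of 152 groups of 4 libraries (single genes with values in every library, and role sums), 1 library stood far from the other 3; chance gives about 5% of groups. In WT stimulated cells these were Ubtf, with 302 CPM in replicate 4, and Noc2l, with 415 CPM in replicate 2. In KO-labelled stimulated cells they were Nop58, with 664 CPM, and Noc2l, with 523 CPM, both in replicate 2. With XCT790 they were Bms1, with 182 CPM in KO-labelled replicate 3, and Nop16, with 259 CPM in WT replicate 2. With CompA it was Heatr1, with 359 CPM in WT replicate 2. Among role sums, WT replicate 2 was low with XCT790 for RNA polymerase I (1267 CPM) and for the snoRNPs (3092 CPM), and low with CompA for the small subunit (1753 CPM) and the large subunit (2395 CPM). The small-subunit sum was high in KO-labelled replicate 3 with XCT790 (2123 CPM), and the large-subunit sum was high in WT unstimulated replicate 1 (738.2 CPM). Replicate 2 was the outlying library in 9 of the 13, 7 of them in WT.

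The response differed between genotypes, by the interaction test of edgeR, for several genes as measured. For stimulation these were Nhp2 (log2 difference, KO-labelled minus WT, 0.99), Npm1 (0.96) and Polr1c (0.94); with the retained unstimulated share subtracted from the WT stimulated libraries the values were 0.55 (edgeR adjusted p = 0.124), 0.60 (edgeR adjusted p = 0.0053) and 0.65 (edgeR adjusted p = 0.056). For XCT790 they were Nhp2 (-0.69, edgeR adjusted p = 0.034), Nip7 (-0.64, edgeR adjusted p = 0.013) and Nop16 (-0.59, edgeR adjusted p = 0.024), and -0.26, -0.23 and -0.16 after subtraction, none called. For CompA they were Nip7 (-0.55, edgeR adjusted p = 0.034), Npm1 (-0.54, edgeR adjusted p = 0.0069) and Gnl3 (-0.50, edgeR adjusted p = 0.037), and -0.14, -0.18 and -0.08 after subtraction, none called.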

How the results depend on the processing

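In every alternative run, stimulation raised 39 or 40 of the genes in KO-labelled and 40 in WT cells, and 38 to 40 were above the unstimulated level with an inhibitor. Other counts moved, and the cause was not tested. Over all genes, upper-quartile factors move the median stimulation change to -0.33 in both genotypes and library totals to -0.40 in KO-labelled and -0.19 in WT cells; the members' medians then were 1.95 and 1.77, and 1.88 and 1.91. The share of called genes that were higher then was 39.8% and 37.5% in KO-labelled cells, against 48.1%, and 36.4% with upper-quartile factors in WT, against 47.1%. Library totals put it at 71.7% for KO-labelled against WT unstimulated cells (34.6% with TMM), 22% for the genotype difference in stimulation (51.1%), 16.9% for XCT790 in WT (29.4%), 44.2% for XCT790 against CompA in KO-labelled cells (60.8%), 38.2% and 39.4% for XCT790 and CompA against unstimulated KO-labelled cells (50.1% and 49.9%), 82.7% for the genotype difference in CompA (72.2%) and 87.4% for KO-labelled against WT with CompA (75.6%). With DESeq2 it was 43.3% for KO-labelled against WT stimulated cells (29%), 63.8% and 64.9% with XCT790 and CompA (77.8% and 75.6%), 55.5% and 56.4% for the genotype differences in XCT790 and CompA (70.8% and 72.2%) and 40.6% for XCT790 in KO-labelled cells (55%).

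KO-labelled against WT stimulated cells, 9 higher as reported: 19 with DESeq2, 17 with no filter, 14 with the replicate block, 15 without KO-labelled run 2, 0 with the compared groups only, and 0 higher and 2 lower with the share subtracted, where Gnl3 (-0.059), Nip7 (-0.0239) and Nop2 (-0.0373) reversed. KO-labelled against WT unstimulated, 2 higher and 14 lower: 4 and 7 with library totals, 6 lower with the compared groups only, and 1 higher with limma-voom, no filter and the replicate block. KO-labelled against WT with XCT790, 4 lower: 8 with DESeq2 and with the compared groups only, and 1 without run 2. With CompA, 2 lower: 4 with DESeq2, 1 with no filter and 1 without run 2. XCT790 in KO-labelled cells, 13 lower: 21 with DESeq2, 22 with the replicate block and 2 with the compared groups only. CompA in KO-labelled cells, 27 lower: 14 with the compared groups only. XCT790 in WT, 7 higher: 3 with library totals, 2 with the compared groups only, 11 with the replicate block, and 0 higher and 6 lower with the share subtracted, where Fbl (-0.0866) and Gnl3 (-0.0484) reversed. CompA in WT, 2 higher and 1 lower: 0 lower with DESeq2, limma-voom and no filter, 2 lower with library totals, and 0 higher and 28 lower with the share subtracted, where Pes1 (-0.152) reversed. XCT790 against CompA in WT, 2 higher: 0 with library totals, upper-quartile factors and no filter, 12 with the compared groups only and 6 with the replicate block, which gave 2 in KO-labelled cells, against 0. CompA against unstimulated KO-labelled cells had 1 gene lower, against 0, with library totals and with upper-quartile factors. Ubtf at stimulation in KO-labelled cells reversed to -0.081 with library totals and -0.0076 with upper-quartile factors. Genotype difference in stimulation, 23: 12 with library totals, 12 with the compared groups only and 2 with the share subtracted. In XCT790, 23: 14, 12 and 0 in the same order. In CompA, 15: 6, 7 and 0 in the same order, 24 with DESeq2 and 26 with the replicate block. The replicate block changed the calls named here by more than 1.5 times and no other count. It was an edgeR fit with run terms, except for KO-labelled against WT cells. There it was a limma-voom fit with correlation within runs, so method and block changed together.

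Leaving out 1 library at a time gave 1 to 21 for KO-labelled against WT stimulated; 1 to 2 higher and 4 to 16 lower for unstimulated; 0 to 5 with XCT790 and 0 to 2 with CompA; 6 to 15 for XCT790 in KO-labelled cells; 0 to 7 for XCT790 in WT; 1 to 2 higher and 0 to 1 lower for CompA in WT; 0 to 3 for XCT790 against CompA in WT; and 15 to 26, 13 to 27 and 7 to 22 for the genotype differences in stimulation, XCT790 and CompA. Among the values of named genes refitted this way, 644 kept their side of the threshold, 107 lost their call, 1 gained one and none reversed. The 12 snoRNA genes listed inside members held 387 counts over all libraries, too few to compare.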
